A study of Mus musculus with 6 samples.

Results

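Some transcribed loci of the mouse genome carry no gene symbol and are known only by the accession of a cloned cDNA. These clone-named loci were described in RNA-seq of sensory neurons of the dorsal root ganglion (DRG), the cluster of sensory cell bodies beside the spinal cord. A locus was a member when its name, once the suffix for an alternative isoform was removed, was only AK, BC or DQ and 6 digits. This rule found 644 of 17022 loci, of which 522 had an AK name, 121 a BC name and 1 a DQ name. Another 14696 loci had a gene symbol and 1682 had no name at all.

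Male C57Bl/6 mice, described as adult and 4 to 6 weeks old, had the sciatic nerve crushed for 10 seconds or, as sham, exposed for 10 seconds. After 7 days the neurons were cut from lumbar DRG of levels 3, 4 and 5 by laser microdissection. There were 3 sham and 3 crush libraries. No transgene, allele or further agent is named for either group. The labels do not say that the libraries came from separate animals, so each p-value reflects only how much these libraries vary, and that variation may be technical.

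The AK and BC names come from large projects that cloned and sequenced full-length mouse cDNAs. Some of the transcripts they found have no long open reading frame. Loci with such names can be long non-coding RNAs or antisense RNAs that run across a gene on the other strand. They can also be divergent RNAs that start near a gene's promoter and point away from it. Others are transcribed pseudogenes or protein-coding genes that had not been given a symbol. In injured sensory neurons many protein-coding genes change as the axon regrows.

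Of the 644 loci, 27 were matched by symbol or synonym to GENCODE or RefSeq on a later build (GRCm38) than that of the files (mm9). None of them had an AK name, and 21 were protein coding in GENCODE, among them BC004004, BC005537 and BC031181. BC002163 was a processed pseudogene there, which is a gene copy made from a spliced mRNA. It is shown because it was the third most abundant member and its transcript is nearly the same as a coding sequence. The GENCODE transcript of BC002163, 319 bases long, was 99.4% identical to the transcript of Ndufs5, a subunit of complex I of the respiratory chain. The first 300 bases of the Ndufs5 coding sequence and of the BC002163 transcript are printed with the 2 mismatched bases in capitals.
Ndufs5: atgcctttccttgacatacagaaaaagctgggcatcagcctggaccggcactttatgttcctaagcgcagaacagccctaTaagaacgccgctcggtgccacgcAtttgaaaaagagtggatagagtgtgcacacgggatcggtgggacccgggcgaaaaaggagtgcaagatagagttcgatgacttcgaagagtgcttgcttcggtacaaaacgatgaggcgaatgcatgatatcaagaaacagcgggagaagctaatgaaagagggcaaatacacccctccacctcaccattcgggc
BC002163: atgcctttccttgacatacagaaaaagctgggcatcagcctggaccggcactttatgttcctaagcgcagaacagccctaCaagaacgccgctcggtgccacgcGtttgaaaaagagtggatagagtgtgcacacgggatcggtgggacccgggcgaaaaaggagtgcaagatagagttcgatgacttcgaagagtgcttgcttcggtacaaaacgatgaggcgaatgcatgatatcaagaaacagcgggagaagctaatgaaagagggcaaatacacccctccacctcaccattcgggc

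The start of BC004004, the most abundant member next to a named gene, is shown because no other member named here had a promoter entry in RefSeq. The window runs from 250 bases before to 50 bases after the first in order of the 3 starts in the RefSeq table (GRCm38.p6, chr17:29268676-29268975, plus strand).
BC004004: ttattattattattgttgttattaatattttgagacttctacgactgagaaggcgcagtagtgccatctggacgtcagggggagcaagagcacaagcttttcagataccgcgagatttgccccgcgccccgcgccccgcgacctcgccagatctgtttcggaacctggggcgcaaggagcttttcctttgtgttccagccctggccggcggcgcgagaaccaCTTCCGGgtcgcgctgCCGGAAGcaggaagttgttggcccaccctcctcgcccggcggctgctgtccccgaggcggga
The capitals mark 2 matches to CCGGAAG, searched on both strands, which 8.86% of 32851 RefSeq promoters of this length held. The window had 27 CG dinucleotides, against a median of 7. It held no match to TATAAA, which 13.6% of promoters held, to CCAAT (37.4% of promoters) or to the motif GGGCGG (35.7% of promoters). The windows of the other starts had 15 and 7 CG dinucleotides and no match to CCGGAAG, and the last of them held 2 matches to CCAAT.

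The largest class of members that overlapped a gene lay on its opposite strand. Each locus was given 1 class, and sharing exon bases with a gene on the same strand took priority. Exon bases were shared with a gene on the opposite strand only at 165 loci (25.6%), against 17.4% of loci with a symbol and 3.92% of unnamed loci. A further 48 loci (7.45%), classed as antisense intronic, overlapped the span of such a gene without sharing exon bases. The share was 2.37% at loci with a symbol and 4.93% at unnamed loci. Such an overlap need not lie wholly within 1 intron. Exon bases on the same strand were shared at 62 loci (9.63%), against 9.31% of loci with a symbol and 22.5% of unnamed loci. Some of the 62 loci, such as AK144265, also share exon bases with a gene on the other strand. Another 8 loci, classed as sense intronic, overlapped the span of a gene on the same strand without sharing exon bases. The remaining loci were within 5 kb of a gene (130, 20.2%) or farther away (231, 35.9%, against 47.3% of loci with a symbol).

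Among the 130 adjacent loci, 79 (60.8%) were divergent from their neighbour, with a median gap of 183 bases, and 66 of these lay within 1000 bases. Of adjacent loci with a symbol, 23.0% were divergent, and of unnamed ones 38.4%. Clone-named loci had a median of 3 exons and 2242.5 exon bases, and loci with a symbol 8 exons and 3902 exon bases. An isoform with a reference identifier was present at 301 of the 644 loci, and the other 343 had only isoforms assembled from the reads.

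**Figure D1:**
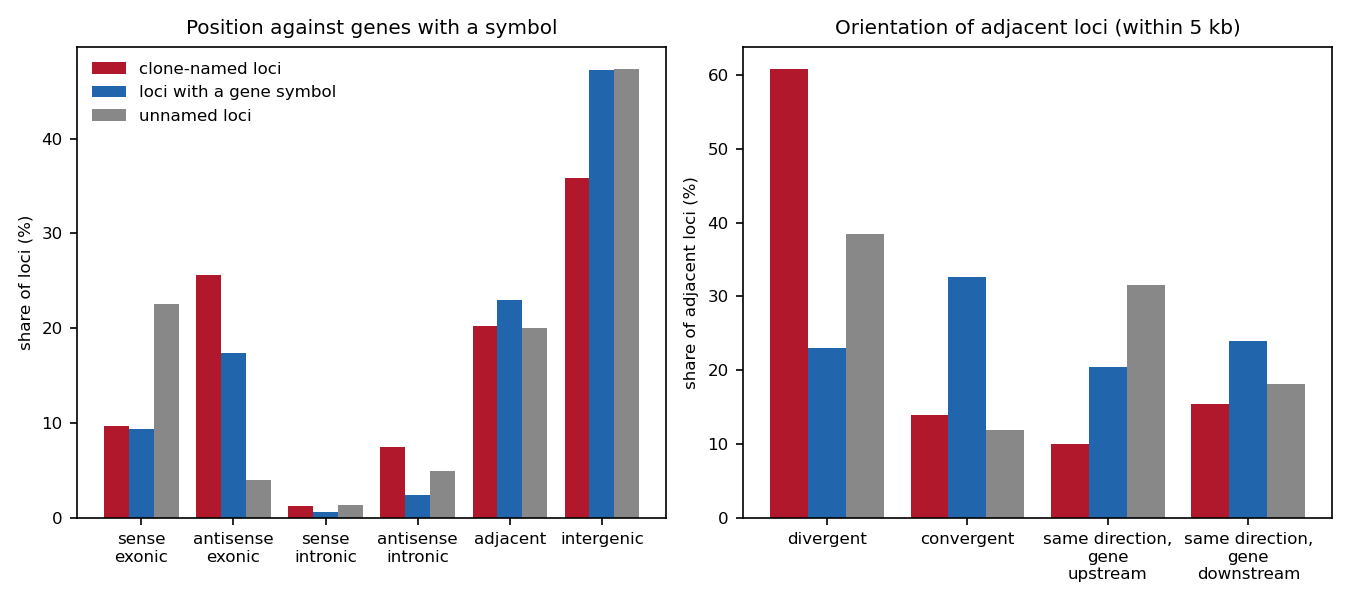
Share of loci (%) by position against genes with a symbol (left) and share of adjacent loci by orientation (right), for clone-named loci (red), loci with a symbol (blue) and unnamed loci (grey). Antisense exonic loci made up 25.6% of clone-named loci, and 60.8% of their adjacent loci were divergent.

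Levels were measured as FPKM, fragments scaled to transcript length and to the mapped fragments of the library, which allows genes of different length to be compared. The median mean level was 0.493 FPKM at clone-named loci, 6.03 at loci with a symbol and 0.196 at unnamed loci. BC loci had a median of 1.70 FPKM and AK loci of 0.434. A mean under 0.1 FPKM was seen at 51 members, while 17 reached 20 FPKM or more.

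**Figure D2:**
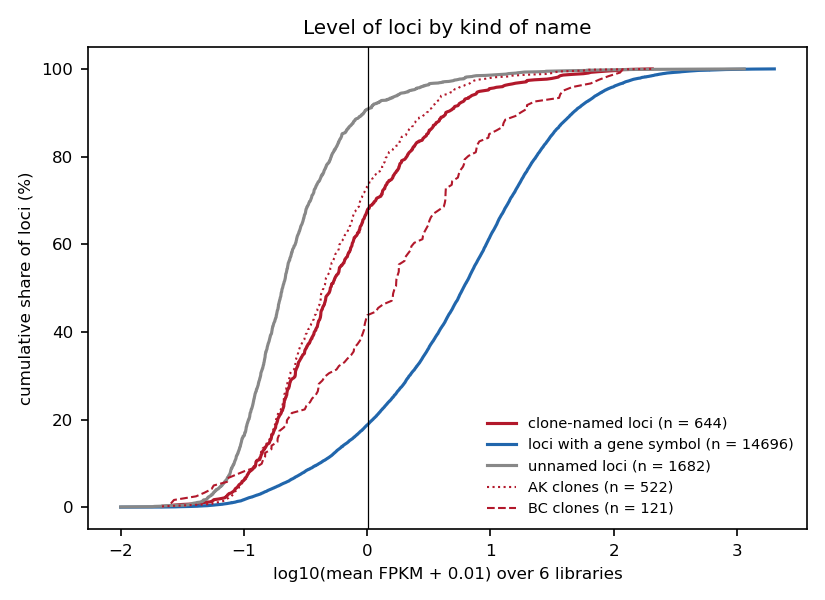
Cumulative share of loci (%) against log10(mean FPKM + 0.01) over the 6 libraries, by kind of name; the vertical line is at 1 FPKM. Clone-named loci (median 0.493 FPKM) lie between unnamed loci (0.196) and loci with a symbol (6.03).

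The summed level of all members did not differ detectably after crush, while the mean share of AK loci was higher and that of BC loci lower; neither passed a test at 0.05. The sum was 1952, 2116 and 1917 FPKM in the sham libraries and 1990, 1894 and 2023 FPKM after crush. The groups overlapped (two-sided exact permutation test, p = 0.8), and 3 libraries against 3 cannot give a p below 0.1. The share of all FPKM was 0.595% ± 0.0140 (SD, n = 3) in sham and 0.605% ± 0.0111 (SD, n = 3) after crush (exact permutation p = 0.4). Without AK144265, an AK locus and the most abundant member, the mean share was 0.541% in sham and 0.534% after crush (exact permutation p = 0.5). The share held by BC loci was 0.298%, 0.305% and 0.301% in sham and 0.292%, 0.288% and 0.291% after crush, lower in every crush library (exact permutation p = 0.1, the smallest possible). The share held by AK loci was 0.310%, 0.275% and 0.296% in sham and 0.325%, 0.310% and 0.307% after crush, with overlapping groups (exact permutation p = 0.2). Members that share no exon bases with a named gene held 0.314% to 0.318% in sham and 0.299% to 0.305% after crush, again without overlap (exact permutation p = 0.1). A level of at least 1 FPKM was reached by 211, 216 and 215 loci in the sham libraries and by 220, 208 and 216 after crush.

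The most abundant member, AK144265 (mm9, chr16:35981744-35983691, minus strand), had 190, 214 and 143 FPKM in sham and 255, 201 and 230 FPKM after crush. The groups overlapped, with a log2 change of 0.34 ± 0.16 (SE, limma adjusted p = 0.352). Its exons overlap those of Dtx3l, an E3 ubiquitin ligase, on the same strand, and 65.8% of its exon bases are shared with Kpna1, an importin, on the opposite strand. The libraries are not stated to keep the strand, so reads of overlapping genes on opposite strands cannot be told apart. Dtx3l had means of 1.29 and 1.39 FPKM and Kpna1 of 24.9 and 25.3 FPKM in sham and crush, both far below AK144265.

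BC002163 (mm9, chr16:42955673-42956229, plus strand) has 1 exon and lies in an intron of the transcription factor gene Zbtb20 on the same strand. It had 104, 159 and 104 FPKM in sham and 99.3, 96.5 and 113 FPKM after crush. Ndufs5, the gene of the nearly identical sequence printed earlier, had 23.9, 38.6 and 24.3 FPKM in sham and 22.6, 22.9 and 26.8 FPKM after crush. Sham 2 was highest at both, and the ratio of BC002163 to Ndufs5 ranged only from 4.13 to 4.40 over the 6 libraries. How reads matching both were assigned is not given in the sources used here, so the level of each is uncertain. The 1 isoform of BC002163 also lacked the deposited status OK in at least 1 library. Zbtb20 itself had means of 1.69 and 2.05 FPKM.

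BC031181 (chr18:75165433-75169572, mm9) was classed as intergenic, which means beyond the distance limit for an adjacent locus. The nearest named gene, Dym, was 5954 bases away, not far past that limit. BC031181 had 114, 145 and 112 FPKM in sham and 114, 106 and 122 after crush. BC048546 (chr6:128489878-128494989) is also intergenic and had 90.7, 111 and 96.1 FPKM in sham and 82.1, 72.8 and 91.9 after crush. At both the groups overlapped, with limma adjusted p of 0.715 and 0.287.

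BC005537 (chr13:24893016-24905702) shares 36.3% of its exon bases with Acot13, an acyl-CoA thioesterase gene on the opposite strand. It had 75.1, 66.9 and 75.3 FPKM in sham and 81.1, 79.9 and 76.6 after crush, so every crush library was above every sham library, although the log2 change of 0.13 did not pass the test (limma adjusted p = 0.434). Acot13 had means of 7.22 FPKM in sham and 6.17 after crush. BC016423, antisense to the Rab regulator gene Gdi2, and AK138949, antisense to the zinc finger gene Zfp74, had means over all libraries of 65.2 and 56.9 FPKM, with overlapping groups.

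AK142847, within the span of Pou2f2 on the opposite strand but sharing no exon base with it, had 36.5 ± 7.20 FPKM in sham and 34.5 ± 2.98 after crush (SD, n = 3 each). BC004004 (mm9, chr17:29405744-29439828), 4646 bases from and divergent to Ppil1, a peptidyl-prolyl isomerase gene, had 43.7, 58.3 and 42.8 FPKM in sham and 44.1, 41.1 and 47.1 after crush. The groups overlapped at both loci.

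The change after crush was tested at the 207 members (139 AK and 68 BC) with a mean of at least 1 FPKM, within a fit to all 12289 loci at that level. Differences were taken on the scale of log2(FPKM + 1), which understates the change of low genes. In tissue cut in bulk, fewer cells of a type and less RNA per cell cannot be told apart. No member was called higher and 2 were called lower (limma, Benjamini-Hochberg adjusted p under 0.05), where 2.38% of all loci tested were called higher, 1.39% lower and 3.78% either way. At an unadjusted p under 0.05, 7 members were higher (3.38%, against 8.59% of all loci tested) and 17 lower (8.21%, against 8.97%). Every crush library lay above every sham library at 14 members and below at 25, or 18.8% in all, against 12.2%, 14.1% and 26.3% of all loci tested. The median log2 change was -0.04, against -0.02 over all loci.

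**Figure D3:**
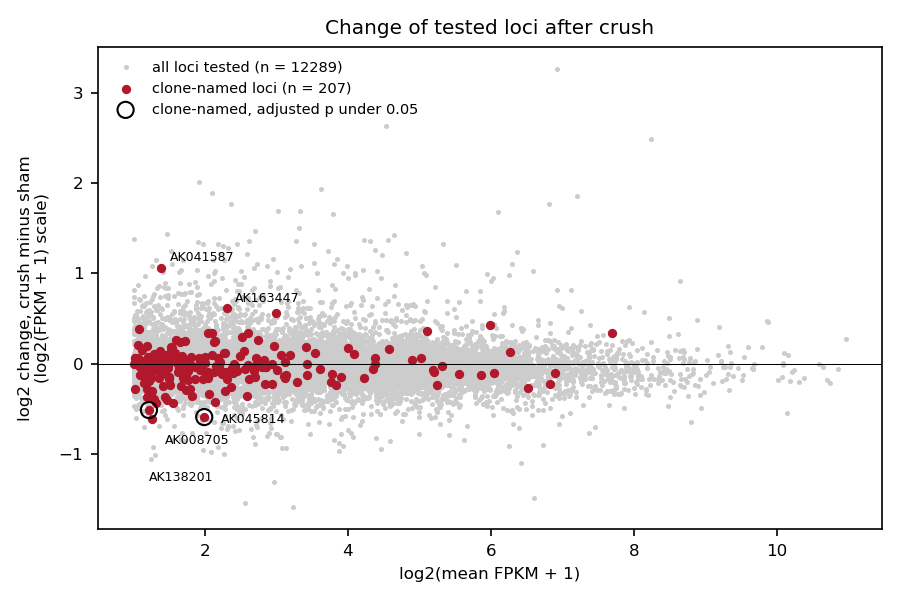
Log2 change after crush against log2(mean FPKM + 1) for all 12289 loci tested (grey) and the 207 clone-named loci (red), with rings at the 2 called. The members' changes ranged from -0.61 to 1.06.

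AK045814 (mm9, chr2:180105182-180121521, minus strand), an intergenic locus with up to 8 exons, had 3.74, 4.06 and 3.54 FPKM in sham and 2.21, 2.21 and 2.08 FPKM after crush. All crush libraries were below all sham libraries. The log2 change was -0.59 ± 0.07 (SE, limma adjusted p = 0.0134). The adjusted p ranged from 0.00182 to 0.0801 over 16 alternatives; the call was lost in 6, with the replicate number as a block and without sham 1, sham 3, crush 1, crush 2 or crush 3.

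AK138201 (mm9, chr2:35405059-35414262, minus strand) shares 14.4% of its exon bases with Dab2ip, a Ras GTPase-activating protein gene, on the opposite strand. It had 1.67, 1.81 and 1.71 FPKM in sham and 1.05, 0.998 and 0.698 FPKM after crush, again with no overlap. The log2 change was -0.51 ± 0.10 (SE, limma adjusted p = 0.0387), and the same 6 alternatives ended the call, with a highest adjusted p of 0.135. No isoform of AK138201 had the deposited status OK in all 6 libraries. The alternative that summed only OK isoforms therefore did not test it. It was also not tested with reference isoforms only. Dab2ip had 14.0, 16.9 and 11.7 FPKM in sham and 10.6, 10.9 and 9.33 after crush, a log2 change of -0.42 that did not pass the test (limma adjusted p = 0.162).

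The other members of largest difference, taken only from those whose groups did not overlap, did not pass the test. AK076583, with overlapping groups, had a log2 change of 0.56 and was left out by that choice. AK041587 (chr14:34864336-34915976) had 0.586, 0.674 and 0.677 FPKM in sham and 1.74, 1.90 and 4.12 after crush, a log2 change of 1.06 (limma adjusted p = 0.0603). AK163447 (chr12:27822750-27845830) had 2.86, 2.91 and 2.88 FPKM in sham and 4.65, 4.15 and 6.24 after crush, a log2 change of 0.62 (limma adjusted p = 0.0532). Both are intergenic, and crush 3 was the highest library at each. AK043285, antisense to Gcnt2, a glycosyltransferase gene, had 61.3, 38.4 and 61.1 FPKM in sham and 65.6, 73.5 and 74.5 after crush. Its log2 change was 0.43 (limma adjusted p = 0.286), with sham 2 apart from the other sham libraries. Gcnt2, which shares 42.3% of the exon bases of AK043285, had 29.5, 8.75 and 26.0 FPKM in sham and 32.0, 29.7 and 20.5 after crush. The log2 change of Gcnt2 was 0.48 (limma adjusted p = 0.638), and sham 2 was its lowest library. AK089981 and AK043581, both intergenic, had log2 changes of 0.39 and 0.34 (limma adjusted p = 0.0851 and 0.166).

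On the lower side, AK008705 (chr8:86534056-86536876), intergenic, had 1.70, 2.20 and 1.77 FPKM in sham and 0.840, 0.598 and 1.28 after crush, a log2 change of -0.61 (limma adjusted p = 0.0771). AK013876, antisense to the orphan receptor gene Gpr173, had a log2 change of -0.44, and AK039624, 916 bases from and divergent to Gse1, of -0.43, with adjusted p of 0.120 and 0.123.

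**Figure D4:**
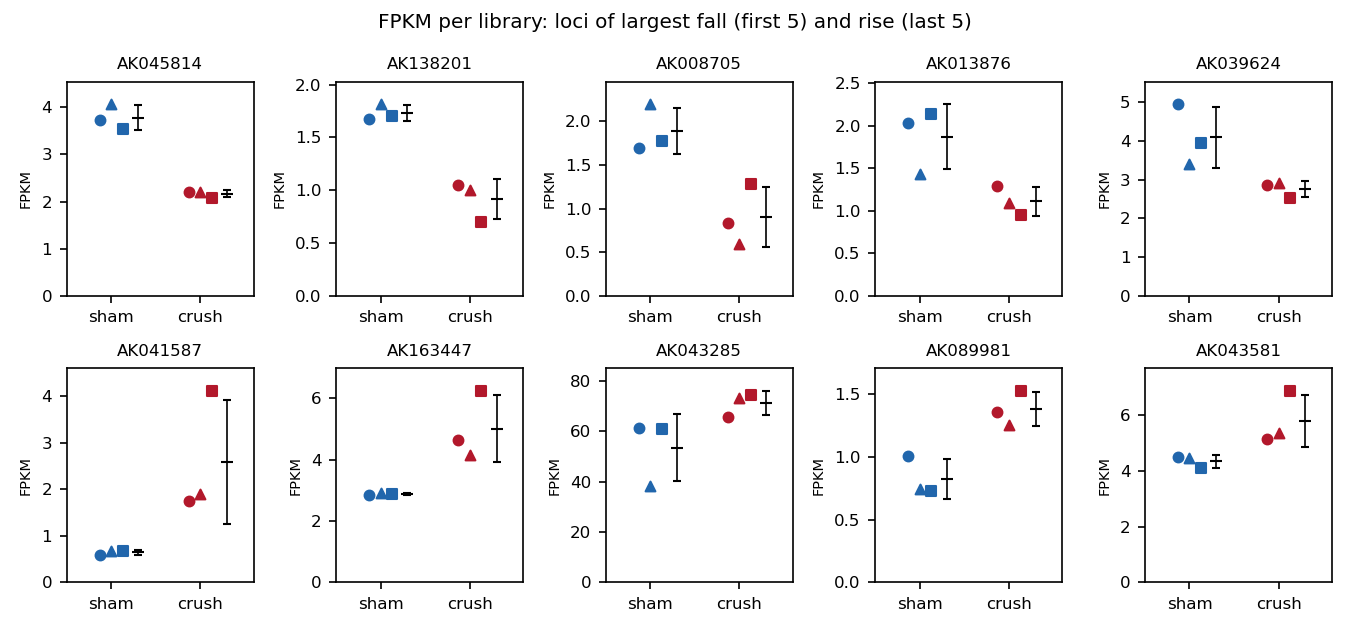
FPKM in each library (circle, triangle and square for replicates 1, 2 and 3) at the members of largest fall (top) and largest rise (bottom) whose groups did not overlap, with mean and SD (n = 3). Only AK045814 and AK138201 passed the test.

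Markers of some other cell types moved with the groups. Of 8 macrophage genes listed in the files, 7 were called higher after crush, and their summed level was 64.0 to 76.6 FPKM in sham and 139 to 153 after crush. Neuronal markers summed to 5166 to 7065 FPKM in sham and 5697 to 6599 after crush, and none of 8 was called. The 5 fibroblast markers summed to 115 to 155 FPKM in sham and 177 to 188 after crush, and the 6 Schwann cell markers to 844 to 918 and 976 to 1031 FPKM. The groups did not overlap in either sum, although none of these genes was called. The satellite glia markers summed to 2196 to 3285 FPKM in sham and 2158 to 2439 after crush, with overlapping groups. The sums of endothelium, blood and muscle markers overlapped as well. The part of RNA from any of these cell types in the changes of the members was not tested.

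Most members with a named partner, overlapping or adjacent, were below it in level. In 118 pairs where both were tested, the member was above its partner in 31, and the median ratio of levels was 0.445 (0.231 in the 57 antisense exonic pairs). Across these pairs, which share libraries and in part exon bases, the log2 changes of member and partner had a Pearson r of 0.13 and a Spearman rho of 0.09. The ratio of member to partner was called changed in 3 of the 118 pairs, where 1.94% of 5776 pairs over all loci were called.

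BC096391 ends 181 bases from Prss12, the gene of the protease neurotrypsin, which converges on it. BC096391 had 2.41, 4.32 and 2.77 FPKM in sham and 2.37, 2.46 and 3.10 after crush, with overlapping groups. Prss12 had 14.2, 15.8 and 14.5 FPKM in sham and 23.3, 21.9 and 31.4 after crush, and rose by 0.73 on the log2 scale (limma adjusted p = 0.0376). That call was lost with the replicate block (adjusted p = 0.114), with reference isoforms only (0.0806) and without sham 1, sham 3, crush 1, crush 2 or crush 3 (0.0541 to 0.135). The ratio changed by -0.90 (limma adjusted p = 0.0466). AK043814, antisense to Bcl3, a nuclear protein of the I-kappa-B family, had a ratio change of -0.66 (limma adjusted p = 0.0466). AK027957, antisense to the zinc finger gene Zfp652, had one of 0.53 (limma adjusted p = 0.0460). AK043814 itself changed by -0.17 and Bcl3 by 0.49 (limma adjusted p = 0.664 and 0.0964). AK027957 itself changed by 0.10 and Zfp652 by -0.43 (limma adjusted p = 0.689 and 0.0511). The partners shared only 0.817% and 2.44% of the exon bases of AK043814 and AK027957. All 3 ratio calls were lost with the replicate block and without sham 1, sham 3, crush 1, crush 2 or crush 3.

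Sham 2 stood apart from the other libraries, with a correlation of 0.978 and 0.981 to the other sham libraries, against 0.996 between those. At 8 of the 207 members sham 2 was more than 1 log2 unit below the mean of the other sham libraries (3.86%, against 0.920% of all loci tested), and at 2 it was as far above. These loci were chosen after their values were seen. AK005503, intergenic, had 44.4, 10.6 and 39.7 FPKM in sham and 42.1, 39.0 and 25.7 after crush. AK038624, antisense to Tspyl4, had 41.7, 14.3 and 40.4 in sham and 36.0, 31.7 and 24.5 after crush. In the other direction AK050795 had 10.5, 27.1 and 7.72 in sham and 15.2, 17.3 and 12.7 after crush. At both loci where it was low, crush 3 was the lowest of the crush libraries.

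**Figure D5:**
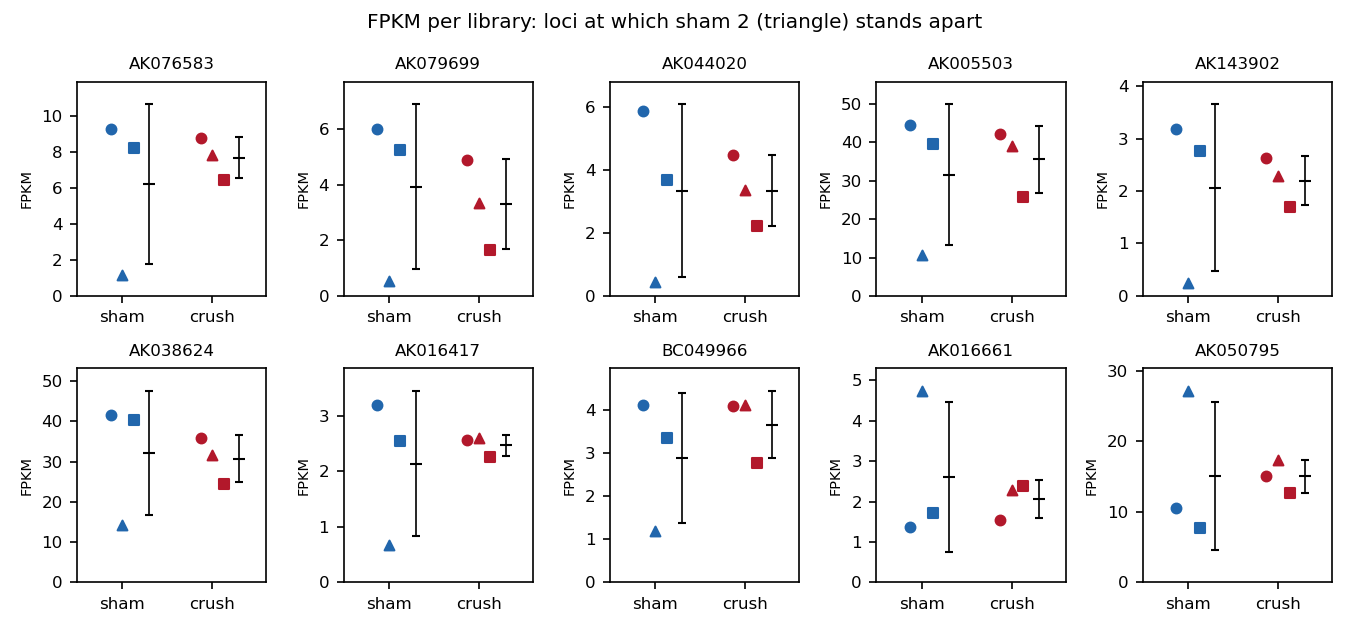
FPKM in each library (circle, triangle and square for replicates 1, 2 and 3) at the 10 members where sham 2 was over 1 log2 unit from the other sham libraries, with mean and SD (n = 3). Sham 2 is lowest of all 6 libraries at 8 of them and highest at AK016661 and AK050795.

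Without sham 2, 4 of the 207 members tested were called higher and 7 lower (limma adjusted p under 0.05), when 1174 of all loci were called in place of 464. Of all loci tested, 4.94% were then called higher and 4.61% lower. AK045814 and AK138201 were among the 7 members called lower, with log2 changes of -0.55 and -0.49. The higher ones were AK041587, AK163447, AK200207 and AK050795. AK200207, an intergenic locus named here after its values were seen, had 3.63, 5.27 and 3.58 FPKM in sham and 4.68, 5.41 and 5.79 after crush.

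The authors' deposited table, which tests single isoforms, called 44 of 852 clone-named isoforms significant, and 3858 of 25544 isoforms over all loci. Among the members with values given here, the authors' deposited table called 2 isoforms of AK163447 significant and 1 each of AK041587, AK200207, BC005537 and AK013876. The log2 fold change in the authors' deposited table was 2.20 for the isoform of AK041587 (q = 9.29e-06), 0.84 for that of AK200207, 1.02 for that of BC005537 and -1.01 for that of AK013876. This isoform of BC005537 had only 1.21 FPKM in sham and 2.45 after crush, where the whole locus had means of 72.4 and 79.2 FPKM. The authors' deposited table called no isoform of AK045814 or AK138201.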

How the data were processed

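RNA was measured in 3 sham and 3 crush libraries, made from 500 ng of RNA with poly-A selection and run over 3 lanes, per the labels' protocols. Per the submitters' processing notes, the authors used TopHat 1.3.2, Cufflinks 1.1.0 and Cuffdiff 1.2.1 on mm9. The deposited FPKM values per isoform, and the authors' p-values and q-values with their log2 fold changes, are used as deposited. Counts and depth are unknown; for clone isoforms at 1 to 10 FPKM, the deposited interval reached typically (median, by library) 34.5% to 35.4% of the value to either side. FPKM were summed over isoforms of a locus. For loci with a mean of at least 1 FPKM, log2(FPKM + 1) values went into limma 3.58.1 (moderated with a mean-variance trend; tested on simulated data) in R 4.3.3, adjusted by Benjamini-Hochberg over all loci tested, and sums with a two-sided exact permutation test. Positions came from the deposited exon file, from transcripts with values only. This left out 2779 named genes with no such transcript. Near copies were sought with blastn 2.17.0 (identity of at least 90% over at least 50% of the transcript). Named were the called loci, the 8 most abundant, the 5 largest rises and 5 largest falls without overlap, the most abundant locus of each position class, the 3 ratio calls, and their partners. The members and lists were chosen with earlier results of these data known. Pseudocount, filter, scaling, isoform choice, array weights, replicate block and left-out libraries were varied.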

Additional observations from a re-analysis of the deposited data

How the results depend on the processing

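Over all loci, 464 calls became 67 with reference isoforms only, 1429 with array weights, 50 with the replicate block and 53 to 1174 when 1 library was left out. The members called higher numbered 2 with a pseudocount of 0.1, 1 with 0.5 or upper-quartile scaling, 3 with a minimum of 0.1 FPKM or no filter, 4 with array weights, and 0 to 4 when 1 library was left out. Of all loci tested, 2.35% were called higher with a pseudocount of 0.1, 2.38% with 0.5 and 2.83% with upper-quartile scaling. The members called lower numbered 5 with a minimum of 0.1 FPKM or no filter and 1 with OK isoforms only, where AK138201 was untested. They numbered 0 with the replicate block, 11 with array weights, and 0 to 7 when 1 library was left out. With reference isoforms only they numbered 0, but neither AK045814 nor AK138201 was tested there. Of all loci, 2.11% were called higher and 1.03% lower with a minimum of 0.1 FPKM (593 members tested). With no filter (644 members) the shares were 1.98% and 0.958%, and with array weights (207 members) 5.97% and 5.66%. Without 1 library they were 0.35% to 4.94% and 0.0814% to 4.61%. The share called lower was 1.28% with OK isoforms only (199 members) and 0.177% with reference isoforms only (73 members). Upper-quartile scaling moved all calls to 348 higher and 131 lower, from 293 and 171. The members' median log2 change was -0.059 with a pseudocount of 0.1, -0.015 with a minimum of 0.1 FPKM, -0.016 with no filter, -0.0044 with upper-quartile scaling and -0.054 with quantile normalization. The summed FPKM after crush minus sham was -64.6 to 34.5 when 1 library was left out, and the share of FPKM changed by -0.0065 percentage points without the most abundant member and -0.013 without members that share exon bases. Per library, a median of 564 members reached 0.1 FPKM and 58 reached 5 FPKM, and 85 were adjacent within 1 kb. When transcripts without values were also placed, 91 members shared exon bases on the same strand and 192 on the opposite strand only. Intergenic members then numbered 186. Ratio calls among members numbered 2 with a pseudocount of 0.1 or 0.5 and 0 with the replicate block. They numbered 0 to 5 when 1 library was left out. Deviations of same-numbered libraries from their group means correlated at 0.372, -0.309 and -0.486. Each group has only 3 libraries and sham 2 stood apart, so these values cannot decide whether replicate numbers pair the libraries. AK041587 was called in 5 of 16 alternatives and AK163447 in 4 of 16. Signs changed only at values that were not called, in the alternatives run: when 1 library was left out the log2 change was -0.17 to 0.013 at BC031181, -0.18 to 0.027 at BC016423, -0.24 to 0.066 at AK138949, -0.15 to 0.087 at AK142847, -0.19 to 0.026 at BC004004, -0.29 to 0.0087 at AK043814, -0.30 to 0.018 at BC096391, -0.038 to 0.78 at Gcnt2, -0.048 to 0.021 at Gdi2, -0.045 to 0.22 at Gpr173, -0.088 to 0.12 at Kpna1, -0.19 to 0.081 at Ppil1, -0.10 to 0.12 at Zfp74. Signs also changed with only isoforms with a reference identifier summed (BC048546 0.019, Gse1 0.22), limma array weights (AK142847 0.054, Kpna1 -0.047, Ppil1 0.033, Zfp74 -0.066), upper-quartile scaling of the 6 libraries (Gdi2 0.038), quantile normalization of the 6 libraries (Gdi2 0.033, Zfp74 -0.018). The causes were not tested. FPKM without counts leaves the depth unknown, and 437 members under 1 FPKM were not tested.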
